A study of Homo sapiens with 6 samples.

Results

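Glycolysis turns glucose into pyruvate in the cytosol. Pyruvate is then either reduced to lactate and exported, or carried into mitochondria and oxidised to acetyl-CoA by the pyruvate dehydrogenase complex. Pyruvate dehydrogenase kinases switch that complex off by phosphorylation, and its phosphatase switches it back on. Primed human pluripotent stem cells are known for a strongly glycolytic metabolism, while naive cells are known to use mitochondrial respiration as well.

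The genes described here are 38 genes of glucose uptake, the glycolytic chain, lactate production and export, the control of phosphofructokinase and the entry of pyruvate into mitochondria, taken by symbol from the 48183 names of the deposited count table. They were measured by bulk RNA-seq of polyadenylated RNA in 6 libraries of human embryonic stem cells (hESCs), 4 naive and 2 primed. The naive libraries came from cells converted with AICAR, an activator of AMPK (AICAR 1 and AICAR 2), with the histone deacetylase inhibitor valproic acid (VPA), or by a doxycycline-induced, constitutively active p38 (CA-p38). All 6 libraries carried the EOS-GFP reporter, and the CA-p38 cells also carried the inducible p38 transgene, as did their primed parent. The primed libraries were the parents of these cells, primed EOS for AICAR and VPA and primed CA-p38 for CA-p38, grown in StemFit AK02N. Naive cells were grown in PXGL medium and sorted for CD75 and SUSD2, so medium, sorting and state cannot be told apart. The labels describe naive culture on mouse feeder cells, but the study also describes feeder-free passages of CA-p38 cells, and the feeder state at collection is not stated for each library. The sample labels name the line H1, whereas the methods of the study name H9.

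Library totals lay between 46823699 and 54277064 counts. All 6 naive-state markers rose and all 5 primed-state markers fell in naive libraries. The 3 pluripotency markers differed among themselves. POU5F1, a core pluripotency factor, had 1541 ± 61.6 CPM in naive (SD, n = 4) and 1679 ± 46.7 CPM in primed libraries (SD, n = 2). NANOG rose by 1.33 on the log2 scale in naive libraries, and SOX2 fell by 0.87. Of 8 fibroblast markers, 5 were lower in naive libraries and none was higher, and their sum was 117 to 159 CPM in naive against 392 to 408 CPM in primed libraries. Their part in the results below was not tested. CPM are library-size-scaled counts with TMM factors. In bulk RNA, fewer cells of a type and less RNA per cell cannot be told apart.

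Naive and primed libraries differed in the shares of the phosphofructokinase-1 and enolase isozymes. The pyruvate dehydrogenase kinases PDK1, PDK2 and PDK3 fell in naive libraries. Counts sufficed to test 37 of the 38 genes. In naive libraries 10 rose, against 26% of all 26497 names tested, and 17 fell, against 27% (edgeR's quasi-likelihood test, Benjamini-Hochberg adjusted p under 0.05). A further 10 did not pass. Fewer genes were called higher without primed CA-p38 and more without primed EOS, in fits that take the spread from the naive libraries. The share of all names called in these fits is not given here. At least 2-fold changes were called upward for 3 genes, where the background was 18.6%, and downward for 10, where it was 16.7%. All 4 naive libraries lay above both primed libraries for 11 genes, against 32.9% of all names, and below both for 15, against 32.1%. The median log2 fold change of the 37 genes was -0.06, and that of all names was 0.11. Summed over the 38 genes, 1.06 to 1.24% of all counts fell to them in naive libraries, 1.73% for primed EOS and 1.42% for primed CA-p38. The p-values measure the spread between these libraries only, because the labels do not say that the AICAR libraries were separate conversions. The study lists its AICAR cells for bulk RNA-seq at consecutive passages, and whether they came from the same culture is not stated.

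**Figure D1:**
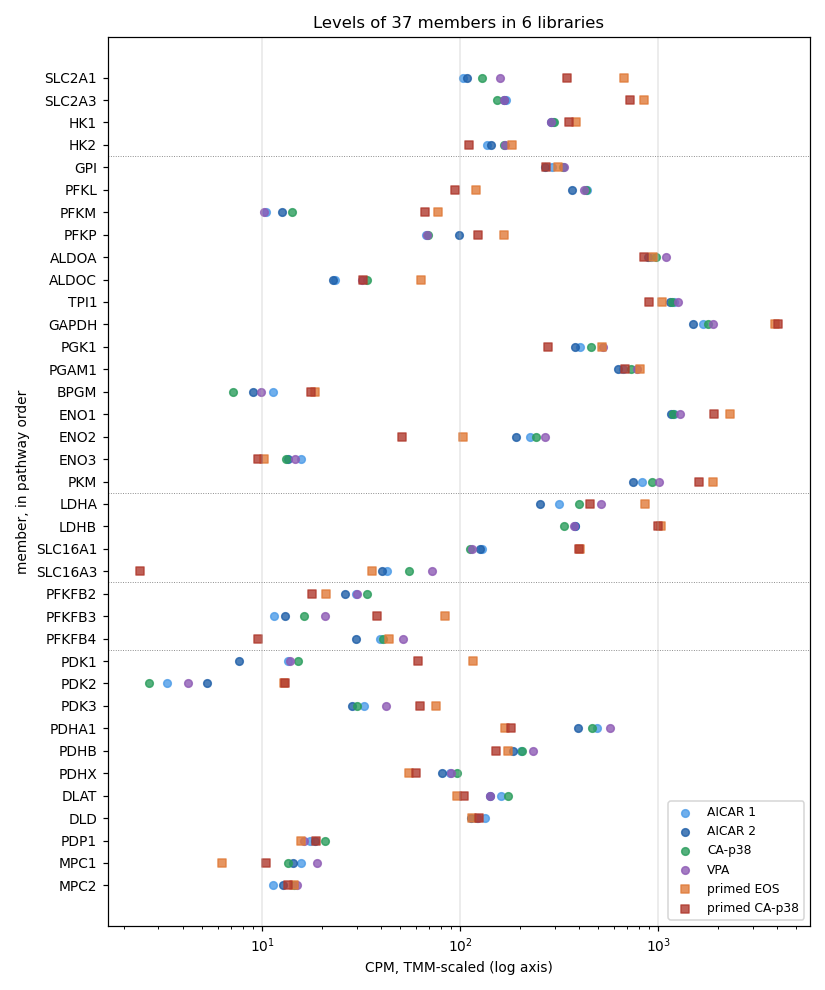
TMM-scaled CPM (log axis) of the 37 tested genes in each of the 6 libraries, in pathway order, with circles for naive and squares for primed libraries and dotted lines between the steps of the pathway. The primed squares stand clear to the right for SLC2A3, GAPDH and PDK1 and clear to the left for PFKL and PDHA1, and they lie far apart for SLC16A3.

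Transcripts of both glucose transporters were lower in naive libraries. SLC2A1 encodes GLUT1, a widely expressed glucose transporter, and had 104, 108, 128 and 159 CPM in AICAR 1, AICAR 2, CA-p38 and VPA, 673 CPM for primed EOS and 345 CPM for primed CA-p38. Every naive library was below both primed libraries, and primed EOS was the higher of the primed pair. It fell by 2.03 on the log2 scale (SE 0.21, adjusted p = 4.38e-06 by edgeR's quasi-likelihood test), a 4.08-fold decrease. SLC2A3 encodes GLUT3, a transporter of high glucose affinity. It had 171, 166, 153 and 166 CPM in the naive libraries in the same order, 847 CPM for primed EOS and 723 CPM for primed CA-p38. The groups did not overlap, and the naive libraries were close to each other. SLC2A3 fell by 2.26 on the log2 scale (SE 0.09, adjusted p = 9.22e-10). Reads can be shared with near copies, and named pseudogenes of SLC2A3 held 1.55 to 6.81% of the counts of the gene and its pseudogenes together. Of the hexokinases, which trap glucose as glucose-6-phosphate, HK1 fell by 0.34 (SE 0.09, adjusted p = 0.00555). HK2 had 154 ± 16.3 CPM in naive (SD, n = 4) and 147 ± 51.3 CPM in primed libraries (SD, n = 2), and did not pass (adjusted p = 0.759), although it did without primed EOS (log2 fold change 0.46, adjusted p = 0.0279).

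Phosphofructokinase-1, the enzyme of the committed step of glycolysis, changed its isozymes. PFKL, the liver-type subunit (GRCh38, chr21:44300051-44327376, plus strand), had 439.7, 369, 435 and 421 CPM in AICAR 1, AICAR 2, CA-p38 and VPA, 121 CPM for primed EOS and 93.9 CPM for primed CA-p38. All naive libraries were far above both primed ones, and PFKL rose 3.87-fold (log2 fold change 1.95, SE 0.13, adjusted p = 5.58e-08). PFKM, the muscle-type subunit (chr12:48105139-48146404, plus strand), went the other way, with 10.5, 12.6, 14.1 and 10.2 CPM in the naive libraries, 77.2 CPM for primed EOS and 66.3 CPM for primed CA-p38. It was low in every naive library and fell 6.06-fold, by 2.60 on the log2 scale (SE 0.15, adjusted p = 1.46e-08). PFKP, the platelet-type subunit, had 67.5, 98.3, 69.1 and 67.8 CPM in naive libraries, 167 CPM for primed EOS and 123 CPM for primed CA-p38. AICAR 2 was the highest of the naive libraries but still below both primed ones, and PFKP fell by 0.94 on the log2 scale (SE 0.16, adjusted p = 0.00035).

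Per kilobase of canonical transcript, PFKL made up 75.4 to 83.9% of the summed phosphofructokinase-1 level in naive libraries, 31.9% for primed EOS and 32.2% for primed CA-p38. PFKM made up 1.88 to 2.53% in naive libraries and 19.2% and 21.4% in the primed pair. PFKP held the remainder and was the most abundant subunit per length in both primed libraries, at 48.9% and 46.5%. The log2 ratio of PFKL over PFKP was 2.47 ± 0.38 in naive (SD, n = 4) and -0.43 ± 0.06 in primed libraries (SD, n = 2), without overlap. An exact two-sided permutation test of 4 against 2 libraries gave p = 0.0667, the smallest value this design allows, and 0.0889 after Benjamini-Hochberg adjustment over the 16 ratios computed. The summed level per kilobase was 168 to 180.4 CPM in naive libraries, 130.2 CPM for primed EOS and 100.5 CPM for primed CA-p38.

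The enolase isozymes also moved in opposite directions, without a change of the main isozyme. ENO2, known as the neuron-type enolase, had 226, 192, 241 and 269.7 CPM in AICAR 1, AICAR 2, CA-p38 and VPA, 104 CPM for primed EOS and 50.9 CPM for primed CA-p38. The groups did not overlap, and ENO2 rose by 1.59 on the log2 scale (SE 0.23, adjusted p = 8.13e-05). ENO1, the ubiquitous enolase, had 1200.3, 1168, 1194 and 1284 CPM in naive libraries, 2311 CPM for primed EOS and 1919 CPM for primed CA-p38. It was lower in all naive libraries and fell by 0.80 on the log2 scale (SE 0.09, adjusted p = 8.93e-06). ENO3, the muscle-type enolase, was low throughout, with 15.8, 13.6, 13.3 and 14.6 CPM in naive libraries, 10.2 CPM for primed EOS and 9.51 CPM for primed CA-p38. It rose by 0.54 on the log2 scale (SE 0.17, adjusted p = 0.016), but did not pass without either primed library (adjusted p = 0.0615 without primed EOS and 0.102 without primed CA-p38). ENO1 remained the main enolase per kilobase, at 85.0 to 87.6% of the family in naive libraries against 96.1% and 97.4% in the primed pair.

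Of the other genes of the chain, 4 fell, 1 rose and the rest did not pass. GAPDH, which oxidises glyceraldehyde-3-phosphate and yields NADH, had 1695, 1497, 1786 and 1904 CPM in the naive libraries, 3894 CPM for primed EOS and 4043 CPM for primed CA-p38. The groups were well separated, and GAPDH fell 2.31-fold (log2 fold change -1.21, SE 0.10, adjusted p = 2.89e-07). Pyruvate kinase, PKM, which makes pyruvate and ATP, fell by 0.99 on the log2 scale (SE 0.12, adjusted p = 1.2e-05). BPGM, which makes 2,3-bisphosphoglycerate, fell by 0.95 (SE 0.19, adjusted p = 0.00107). ALDOC, a minor aldolase, fell by 0.77 (SE 0.23, adjusted p = 0.0143), although its groups overlapped and the call was lost without primed EOS (adjusted p = 0.487). TPI1, which interconverts the triose phosphates, rose by 0.31 (SE 0.09, adjusted p = 0.0134), a call lost without primed CA-p38 (adjusted p = 0.132). The steps that remained did not pass, with log2 fold changes of 0.06 for the isomerase GPI, 0.11 for the main aldolase ALDOA, 0.15 for the kinase PGK1 and -0.09 for the mutase PGAM1. Without primed EOS, PGK1 passed with 0.66 (adjusted p = 0.00624).

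**Figure D2:**
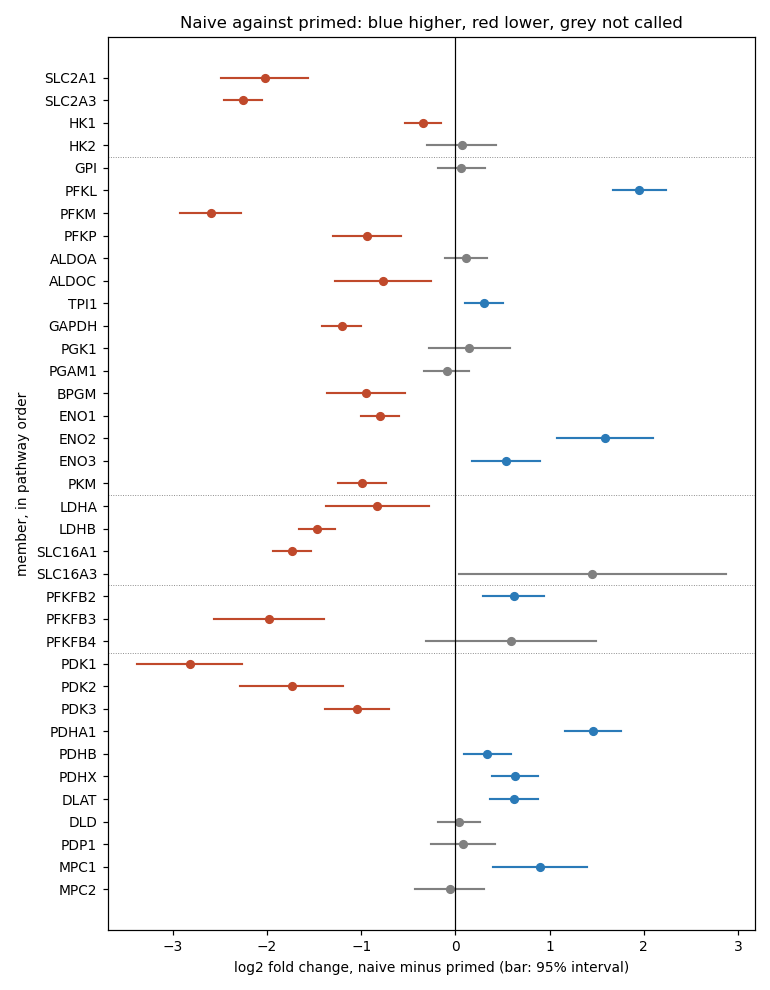
Fitted log2 fold change, naive minus primed, of the 37 tested genes with 95% intervals, in pathway order, in blue where higher, red where lower and grey where not called. PDK1 at -2.82 and PFKM at -2.60 reach farthest to the left, PFKL at 1.95 reaches farthest to the right, and the interval of SLC16A3 is the widest.

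Both lactate dehydrogenase subunits and the lactate carrier SLC16A1 were lower in naive cells. LDHB, the heart-type subunit, had 383, 379, 335 and 378 CPM in naive libraries, 1037 CPM for primed EOS and 1001 CPM for primed CA-p38. The groups were far apart, and LDHB fell by 1.47 on the log2 scale (SE 0.09, adjusted p = 2.27e-08). LDHA, the muscle-type subunit, fell by 0.83 (SE 0.25, adjusted p = 0.0145), but with 514 CPM in VPA and 456 CPM in primed CA-p38 its groups overlapped, and without primed EOS it did not pass (adjusted p = 0.374), nor by DESeq2 (adjusted p = 0.062). SLC16A1, which encodes the monocarboxylate carrier MCT1, had 129, 126, 112 and 115 CPM in naive libraries, 402 CPM for primed EOS and 399 CPM for primed CA-p38. It fell 3.33-fold, with naive and primed libraries each closely grouped (log2 fold change -1.73, SE 0.09, adjusted p = 8.13e-09). Reads of LDHA and of SLC16A1 were divided nearly evenly between 2 identifiers with the same name, and their counts were summed.

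SLC16A3, which encodes MCT4, a carrier known for lactate export, is described here for its spread between the primed libraries. It had 42.7, 40.4, 55.0 and 71.9 CPM in AICAR 1, AICAR 2, CA-p38 and VPA, 36.0 CPM for primed EOS and 2.41 CPM for primed CA-p38. All naive libraries were above both primed ones, but as a fold the primed libraries differed more from each other than primed EOS did from any naive library. The log2 fold change of 1.45 (SE 0.65) did not pass (adjusted p = 0.0794), with 1.15e-06 to 0.237 over the alternatives tried. With the parental line as a block it passed (log2 fold change 1.68, adjusted p = 0.0374).

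The bifunctional enzymes that make and remove fructose-2,6-bisphosphate, the activator of phosphofructokinase-1, moved in different directions. PFKFB3, known for high kinase activity, had 11.5, 13.1, 16.2 and 20.8 CPM in naive libraries, 84.1 CPM for primed EOS and 37.9 CPM for primed CA-p38. It was lower in every naive library and fell 3.95-fold, by 1.98 on the log2 scale (SE 0.27, adjusted p = 4.18e-05). PFKFB2 had 29.7, 26.3, 33.9 and 30.1 CPM in naive libraries, 21.1 CPM for primed EOS and 17.9 CPM for primed CA-p38. The groups did not overlap, and it rose by 0.62 on the log2 scale (SE 0.15, adjusted p = 0.00351), with an adjusted p of 0.0502 without primed CA-p38. PFKFB4 had 39.6, 29.7, 40.8 and 51.6 CPM in naive libraries, 43.99 CPM for primed EOS and 9.53 CPM for primed CA-p38, so its groups overlapped and it did not pass (adjusted p = 0.249), but without primed EOS it did (log2 fold change 2.07, adjusted p = 7.07e-05). The log2 ratio of PFKFB3 over PFKFB4 was -1.40 ± 0.26 in naive (SD, n = 4) and 1.46 ± 0.75 in primed libraries (SD, n = 2), without overlap (exact permutation p = 0.0667).

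PDK1, PDK2 and PDK3, kinases that inhibit the pyruvate dehydrogenase complex, fell. PDK1 (chr2:172555373-172608669, plus strand) had 13.5, 7.67, 15.2 and 13.8 CPM in AICAR 1, AICAR 2, CA-p38 and VPA, 117 CPM for primed EOS and 61.5 CPM for primed CA-p38. Every naive library was low, and the 7.08-fold decrease was the largest fitted change among the 37 tested genes (log2 fold change -2.82, SE 0.26, adjusted p = 1.01e-06). PDK2 had 3.29, 5.28, 2.69 and 4.24 CPM in naive libraries, 12.9 CPM for primed EOS and 13.0 CPM for primed CA-p38. It was low throughout and fell by 1.74 on the log2 scale, without overlap (SE 0.25, adjusted p = 7.29e-05). PDK3 had 32.9, 28.3, 30.2 and 42.5 CPM in naive libraries, 75.2 CPM for primed EOS and 62.9 CPM for primed CA-p38, again without overlap, and fell by 1.04 (SE 0.16, adjusted p = 9.78e-05). PDK4 had at most 1 count in any library and was not tested.

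Subunits of the complex itself were level or higher. PDHA1, the E1 alpha subunit that the kinases phosphorylate (chrX:19343893-19361718, plus strand), had 491, 394, 462 and 571 CPM in naive libraries, 168 CPM for primed EOS and 181 CPM for primed CA-p38. It rose 2.75-fold with all naive libraries above both primed ones (log2 fold change 1.46, SE 0.14, adjusted p = 1.51e-06). PDHX, which anchors the E3 component, rose by 0.63 (SE 0.11, adjusted p = 0.000396), and DLAT, the E2 core, by 0.62 (SE 0.12, adjusted p = 0.000612). PDHB, the E1 beta subunit, rose by 0.34 (SE 0.12, adjusted p = 0.0261), a call that 6 of the 16 alternatives did not give. DLD, the E3 subunit shared with other complexes, had a log2 fold change of 0.04, and PDP1, a phosphatase that reactivates the complex, one of 0.08, and neither passed (adjusted p = 0.792 and 0.694). Of the mitochondrial pyruvate carrier, MPC1 rose by 0.90 (SE 0.23, adjusted p = 0.0051), a call lost without primed EOS (adjusted p = 0.089), and MPC2 did not pass (log2 fold change -0.06, adjusted p = 0.778).

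The ratio of the phosphatase PDP1 to the kinase PDK1 differed between groups, where PDK1 fell and PDP1 did not pass. No ratio of PDP1 to PDK2 or to PDK3 was computed. The log2 ratio of PDP1 over PDK1 was 0.37, 1.27, 0.44 and 0.24 in AICAR 1, AICAR 2, CA-p38 and VPA, -2.88 for primed EOS and -1.71 for primed CA-p38. All naive values were above the primed pair (exact permutation p = 0.0667, adjusted 0.0889). For PDK3 over PDK1 the log2 ratio of counts was 1.28, 1.88, 0.99 and 1.62 in the naive libraries. It was -0.63 for primed EOS and 0.031 for primed CA-p38. The canonical transcripts have 14072 bases for PDK1, 1741 for PDK3 and 4210 for PDP1, and these ratios were not corrected for length. The sign of such a ratio therefore does not show which transcript was more abundant. Of the 16 ratios, 12 had no overlap between naive and primed libraries. The share among pairs of other names was not computed, so whether 12 is many is not known. Of all single names tested, 32.9% lay above and 32.1% below without overlap. LDHB over LDHA, SLC2A1 over SLC2A3, HK1 over HK2 and PDK2 over PDK1 overlapped.

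**Figure D3:**
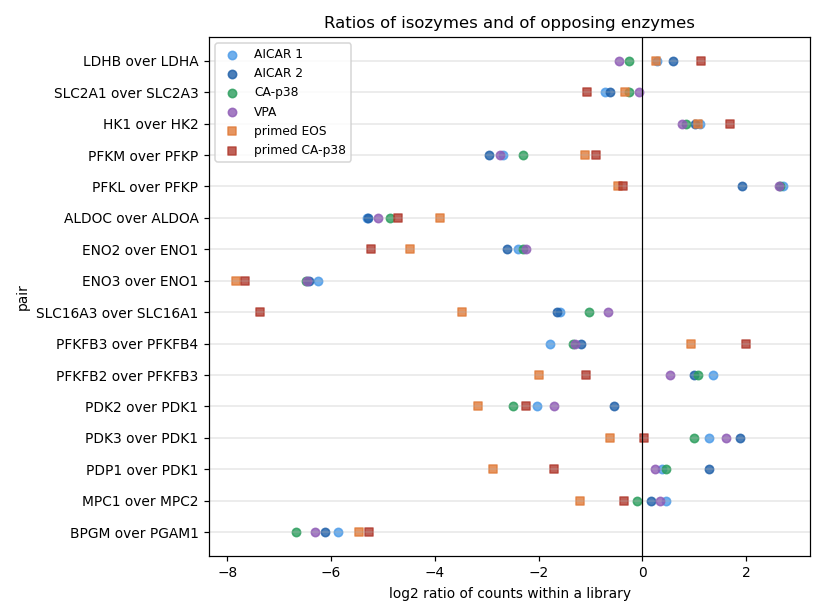
Log2 ratio of the counts of a pair of genes within each library, for the 16 pairs, with circles for naive and squares for primed libraries. The squares stand apart from the circles for PFKL over PFKP, for ENO2 over ENO1 and for PDP1 over PDK1, and they mix with the circles for LDHB over LDHA.

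The primed libraries differed from each other in a set of these genes. Between them, 10 genes were at least 1.5-fold higher in primed EOS, 1 was at least 1.5-fold higher in primed CA-p38, and 26 lay within that range. Of all names tested, 17.0% were at least 1.5-fold higher in primed EOS, whereas 10.9% were so in primed CA-p38. With 1 library of each there is no test, and the intervals below are exact Clopper-Pearson 95% intervals that cover counting error only. SLC16A3 was 14.8-fold higher in primed EOS (12.4 to 18.1), PFKFB4 4.61-fold (4.18 to 5.11) and PFKFB3 2.22-fold (2.10 to 2.35). The other genes higher in primed EOS were ENO2, ALDOC, SLC2A1, PDK1, LDHA, PGK1 and HK2, at 1.66- to 2.04-fold. MPC1 was the 1 gene in the other direction, 1.67-fold higher in primed CA-p38. Of the 37 genes, 29 were higher in primed EOS by any amount, and so were all 12 hypoxia-responsive genes outside glycolysis, against 45.8% of all names. The ratios of these 12 ran from 1.20 for ADM and 1.32 for NDRG1 to 15.3 for DDIT4, which had 66.9 against 4.36 CPM. Their part in the difference was not tested.

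Compared each with its own parent, AICAR 1, AICAR 2, CA-p38 and VPA had 16, 16, 14 and 16 of the 37 genes at least 1.5-fold lower, where 30.4, 31.5, 30.1 and 30.4% of all names were. At least 1.5-fold higher were 7, 4, 10 and 6 genes, where 33.1, 34.4, 34.7 and 34.8% of all names were. The AICAR and VPA libraries share primed EOS as their reference. In all 4 naive libraries 16 genes were below the parent, against 35.4% of all names, and 12 were above it, against 36.8%. PFKFB4 was 4.28-fold its parental level in CA-p38 (3.87 to 4.74), and 0.899-, 0.674- and 1.17-fold in AICAR 1, AICAR 2 and VPA. SLC16A3 was 22.7-fold its parental level in CA-p38 (19.0 to 27.7) but 1.19-fold in AICAR 1, 1.12-fold in AICAR 2 and 2.0-fold in VPA. For SLC16A3 and PFKFB4 these differences came with the low level in primed CA-p38 given above, as the naive levels themselves lay within 40.4 to 71.9 CPM and 29.7 to 51.6 CPM. A test of whether the change differed between the parental lines called none of the 37 genes, against 0.00377% of all names (edgeR's quasi-likelihood test of the interaction, Benjamini-Hochberg adjusted). At an unadjusted p under 0.05 it gave 10 genes, against 3.22% of all names, with SLC16A3 lowest (adjusted p = 0.115). No other tool was run for this test.

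**Figure D4:**
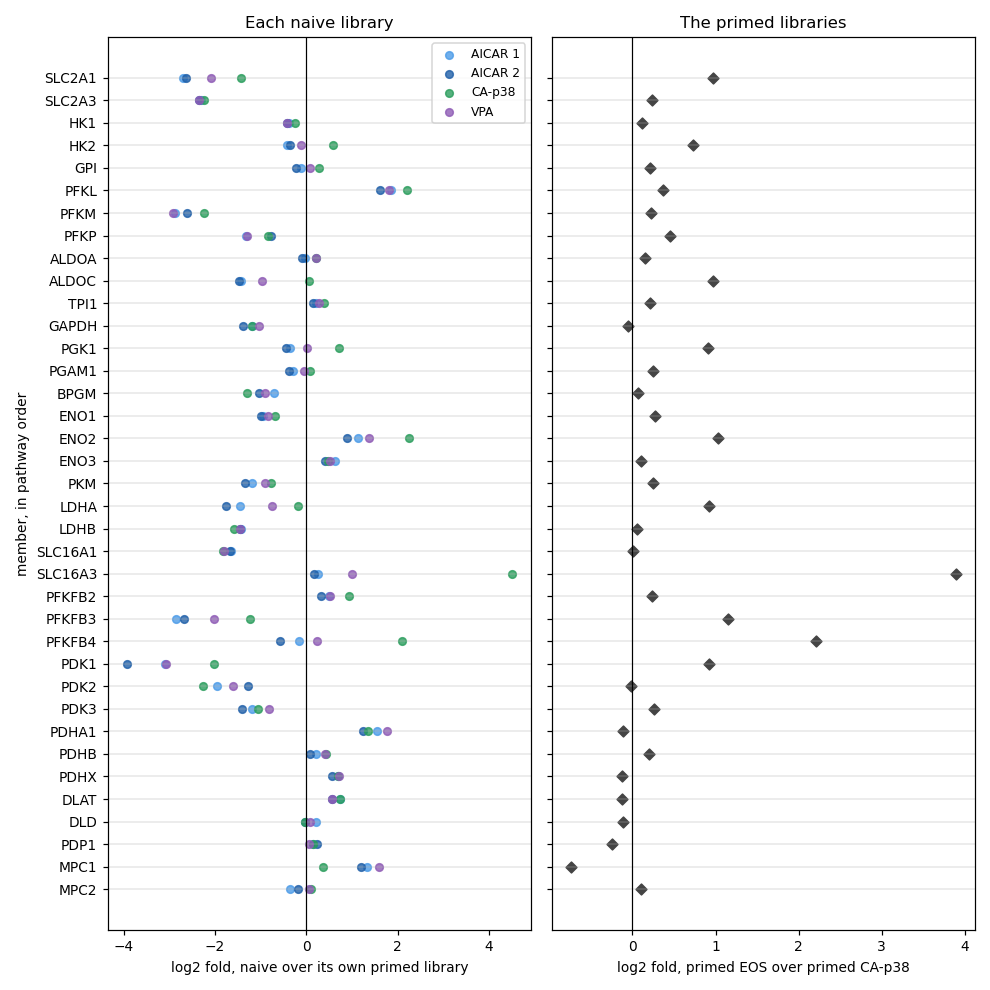
Left, log2 fold of each naive library over its own parental primed library for the 37 tested genes; right, log2 fold of primed EOS over primed CA-p38. The CA-p38 point of SLC16A3 lies far to the right of the other naive libraries, and the same gene has the largest difference between the primed libraries.

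Among the 4 naive libraries, the highest was a median of 1.29-fold above the lowest, and at most 2.03-fold, for LDHA. VPA was the highest of the 4 naive libraries for 20 of the 37 genes and AICAR 2 the lowest for 21. How often this order held among all names was not computed, so whether it is particular to these genes is not known.

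The promoters of the genes that differed between the primed libraries were searched for ACGTG, letters found in sites of hypoxia-inducible factors and, as CACGTG, of E-box factors, on either strand in the 250 bases before each RefSeq start (GRCh38.p14). RefSeq promoters were found for 34 of the 38 genes, and not for PDP1, SLC16A1, PFKFB2 and SLC2A3. At least 1 start held the letters for 20 of these 34 genes, against 21.7% of the 27305 genes in the table. The 34 genes had 67 windows and the 27305 genes had 35116, so the shares by gene are not alike in the number of starts. Of single windows, 34.3% of the 67 held the letters, against 18.5% of all windows. Of the 10 genes higher in primed EOS, 8 held a match, and so did 12 of the other 23 that were tested. PFKFB4 and SLC2A1, 4.61- and 1.95-fold higher in primed EOS, held none. SLC16A3 held matches only in the window at chr17:82228792-82229041 and none before its other starts. A match describes letters only, and the motif was chosen after the values had been seen. LDHA, PGK1 and ALDOC are shown as genes higher in primed EOS with a match, and PFKL, which rose in all naive libraries, as one without a match, 5′ to 3′ with ACGTG and its complement CACGT in capitals. The windows shown held 5 matches for LDHA, 2 for PGK1 and 3 for ALDOC, where CACGTG counts as a match on each strand. The window of another LDHA start (chr11:18396101-18396350) held no match.
LDHA, chr11:18394313-18394562, plus strand: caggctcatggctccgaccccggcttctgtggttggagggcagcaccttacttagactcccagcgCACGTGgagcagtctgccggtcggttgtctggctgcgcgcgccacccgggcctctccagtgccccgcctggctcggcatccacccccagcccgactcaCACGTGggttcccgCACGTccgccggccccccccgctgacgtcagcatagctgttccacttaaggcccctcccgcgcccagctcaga
PGK1, chrX:78103998-78104247, plus strand: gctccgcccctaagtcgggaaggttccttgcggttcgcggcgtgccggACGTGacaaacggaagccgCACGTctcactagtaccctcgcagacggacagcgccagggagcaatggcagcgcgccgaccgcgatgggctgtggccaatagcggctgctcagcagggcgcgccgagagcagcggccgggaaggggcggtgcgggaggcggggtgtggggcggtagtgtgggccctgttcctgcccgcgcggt
ALDOC, chr17:28576896-28577145, minus strand: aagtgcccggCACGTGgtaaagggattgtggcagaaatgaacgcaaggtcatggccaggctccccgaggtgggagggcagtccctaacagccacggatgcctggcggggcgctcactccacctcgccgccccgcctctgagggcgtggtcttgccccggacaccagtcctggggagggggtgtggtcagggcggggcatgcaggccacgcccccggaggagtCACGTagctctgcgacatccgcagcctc
PFKL, chr21:44299803-44300052, plus strand: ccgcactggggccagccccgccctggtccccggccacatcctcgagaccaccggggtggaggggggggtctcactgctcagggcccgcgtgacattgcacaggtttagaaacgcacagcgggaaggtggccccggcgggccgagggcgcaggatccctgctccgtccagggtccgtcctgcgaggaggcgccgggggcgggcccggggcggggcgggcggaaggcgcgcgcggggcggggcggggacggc

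Genes next to glycolysis were read from lists of related pathways, against the 26% of all names higher and 27% lower. Of 26 tested isozymes and carriers of the same steps, 6 rose and 8 fell. LDHD, which oxidises D-lactate, rose by 5.54 on the log2 scale, from 0.842 to 39.3 CPM on average, and EMB, a partner protein of monocarboxylate carriers, fell by 3.36. SLC2A10, a glucose transporter, fell by 1.46, and SLC2A14, a near copy of SLC2A3, by 1.20. In gluconeogenesis 2 of 6 rose and none fell, namely FBP1 (3.84), which opposes phosphofructokinase, and SLC37A4 (1.66), which carries glucose-6-phosphate.

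In glycogen metabolism 5 of 9 rose and 3 fell. The phosphorylases PYGB (3.19) and PYGL (1.70), which break glycogen down, rose, and PGM1, which interconverts glucose phosphates, fell by 3.26. In the pentose phosphate pathway 3 of 8 rose and 2 fell, with TKTL1 up by 6.62, TALDO1 by 1.03 and PGLS by 0.32, and with TKT at -0.74. In the citric acid cycle 8 of 14 rose, among them IDH3G (1.48), and 3 fell, among them SUCLG2 (-2.46) and IDH2 (-2.44), with a median log2 fold change of 0.51.

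Of 16 regulators of glycolytic genes, 7 rose and 6 fell. HIF1A, the oxygen-regulated factor, fell by 1.90, MYC by 2.83 and the RNA-binding protein LIN28A by 1.73, while MLXIPL, a glucose-sensing factor, rose by 2.06. Of the 12 hypoxia-responsive genes outside glycolysis, 2 rose (VEGFA, 0.95, and P4HA2, 0.87), and 1 fell (ADM, -2.94). These values come from the same quasi-likelihood fit, and each named gene passed at an adjusted p under 0.05.

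**Figure D5:**
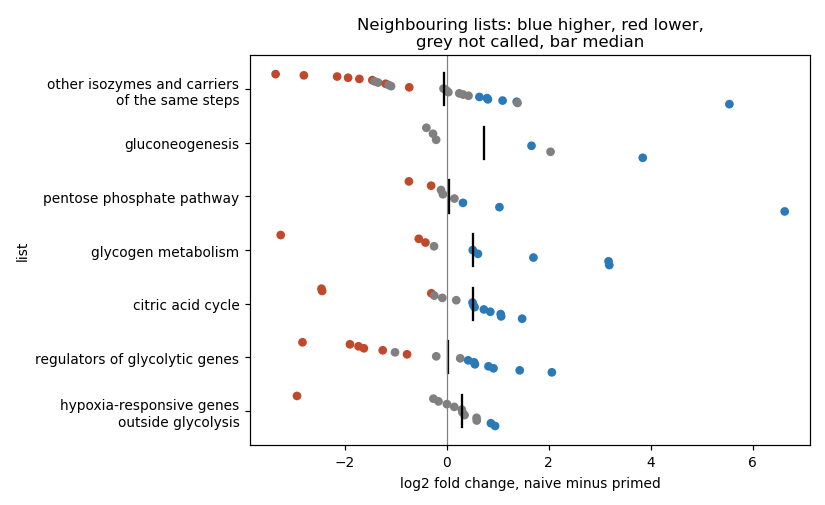
Log2 fold change, naive minus primed, of each tested gene of 7 neighbouring lists, in blue where higher, red where lower and grey where not called, with a black bar at the median of the list. Glycogen metabolism and the citric acid cycle have medians of 0.51, and TKTL1 at 6.62 and LDHD at 5.54 lie farthest to the right.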

How the data were processed

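Bulk RNA-seq of 4 naive and 2 primed libraries was used. The authors trimmed adapters with cutadapt 1.15 in Trim Galore 0.4.4 and mapped reads with Bowtie2 to Ensembl GRCh38 cDNA and noncoding RNA. They deposited whole-number counts per gene identifier. The study also names RSEM and limma voom, and their role in the deposited counts is not given. Whether counting used the strand is not stated. The 23 columns from other studies and 26 spike-in rows were not used. Counts of identifiers sharing a name were summed. Totals were 46823699 to 54277064, and 3 counts, the limit that a count of 0 allows, corresponded to 0.0553 to 0.0641 CPM. The naive group was tested against the primed group in R 4.3.3 by the quasi-likelihood functions of edgeR 4.0.16 (glmQLFit, glmQLFTest, TMM, filterByExpr, common dispersion 0.0563) over 26497 names with Benjamini-Hochberg adjustment. Ratios used exact permutation tests. Parental folds used a prior count of 0.5. Scripts were tested on simulated data. Positions and transcript lengths came from GENCODE 44.

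The genes and lists were chosen with earlier results of these data known. All 38 genes are named. Values in every library are given for genes past the threshold that changed at least 2-fold without overlap and for isozymes called in opposite directions. SLC16A3 and PFKFB4 were added after their values were seen. Of other lists, at most 4 called names with the largest change and a mean of at least 5 CPM are named. Some names that this rule gives are not reported here. Alternatives were scaling by median-ratio factors or library totals, DESeq2 1.42.0, limma-voom (limma 3.58.1), other count filters, single identifiers, named pseudogenes added, a block for the parental line, both AICAR libraries added together and omission of each library. The interaction test, the 1.5-fold counts with their share of all names and the promoter search were added after seeing the data. Ratios, folds and plots used Python 3.11.15 (scipy 1.17.1, pandas 2.3.3, numpy 2.4.6, matplotlib 3.10.9).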

Additional observations from a re-analysis of the deposited data

Results flagged for a closer look

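PFKP in AICAR 2 (98.3 CPM) stood apart from the other naive libraries (67.5 to 69.1 CPM), and so did LDHB in CA-p38 (335 CPM against 378 to 383 CPM). In each, the gap from that library to the nearest of the others, as a share of the range of the 4 naive libraries, exceeded Dixon's 95% critical value. These are 2 of 37 genes examined, and by its construction that limit marks about 1 in 20 groups by chance.

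In 3 genes the CA-p38 library lay above its parent while the AICAR and VPA libraries lay below theirs. The share of all names with this pattern was not computed, so whether 3 genes are many is not known. HK2 had a log2 fold of 0.59 in CA-p38, against -0.42, -0.36 and -0.11 in AICAR 1, AICAR 2 and VPA. ALDOC had 0.066 against -1.44, -1.47 and -0.98. PGAM1 had 0.087 against -0.29, -0.37 and -0.049. The edgeR interaction test of state and parental line called none of them (adjusted p = 0.9999 for each), with unadjusted p = 0.00502 for HK2, 0.00339 for ALDOC and 0.199 for PGAM1. It rests on 1 library of each primed line and 1 CA-p38 naive library, whose spread is taken from the other libraries.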

How the results depend on the processing

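Of the 27 called genes, 20 kept their direction and call under all 16 alternatives, and 7 lost the call under at least 1 (ALDOC, LDHA, TPI1, ENO3, PFKFB2, PDHB and MPC1). The count of higher genes was 10, and 6 to 12 when single libraries were left out, with 6 without primed CA-p38 and 12 without primed EOS. The count of lower genes was 17, and 15 to 17. The median log2 fold change of -0.06 ran from -0.23 without primed CA-p38 to -0.018 without AICAR 1, and library totals gave 0.036. The median of all names moved from 0.11 to 0.20 with library totals. With the parental line as a block, SLC16A3 passed (log2 fold change 1.68, adjusted p = 0.0374). Genes not called changed sign as follows. DLD had -0.016 with median-ratio factors and with DESeq2, PGAM1 had 0.00271 and MPC2 0.036 with library totals. With libraries left out, the values ran from -0.032 to 0.100 for DLD, -0.204 to 0.025 for PGAM1, -0.032 to 0.162 for GPI, -0.051 to 0.217 for PDP1, -0.24 to 0.46 for HK2, -0.23 to 0.66 for PGK1 and -0.12 to 2.07 for PFKFB4. The causes were not tested. Of 112 alternative values of the ratios, 18 moved by more than the naive SD, and none of the 16 counts of parental folds moved by over 1.5 times. With 2 primed libraries, leaving 1 out takes the spread from the naive libraries.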
